A study of Mus musculus with 81 samples.

Results

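Arhgef10l encodes a guanine nucleotide exchange factor (GEF) and is the 1 gene of 57010 gene identifiers in the count matrices that is described here. It was chosen by its genotype effect on the normal diet, which was negative in CA3 pyramidal neurons (PNs) and positive in dentate gyrus granule cells (DGCs). Those values are therefore given as a description, without a test. Its level was then followed in every library by population, genotype and diet.

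The RNA came from hippocampal neurons of Ts65Dn (Ts) mice and disomic (2N) controls. Ts mice carry a freely segregating extra chromosome with a triplicated segment of mouse chromosome 16 (Mmu16) joined to a smaller Mmu17 segment. They model Down syndrome only in part. Only some of the genes with a counterpart on human chromosome 21 are triplicated, and the Mmu17 segment has no counterpart there. The breeders were Ts65Dn females and F1 males of C57Bl/6J Eicher × C3H/HeSnJ, and male offspring were examined at about 6 months of age (MO). Dams were fed either a control chow with 1.1 g/kg choline chloride (normal diet, ChN) or a chow with 5.0 g/kg (supplemented diet, ChP) through gestation and nursing, and all offspring received the control chow after weaning. CA1 PNs, CA3 PNs and DGCs were cut from Nissl-stained sections by laser capture microdissection in groups of about 950, 750 and 1175 neurons per brain, so that each library is a bulk sample of 1 mouse and 1 population. In such samples fewer cells of a type and less RNA per cell cannot be told apart.

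On the normal diet there were 6 2N and 5 Ts libraries of CA1 PNs, and 6 of each genotype of CA3 PNs and of DGCs. On the supplemented diet there were 7 2N and 9 Ts libraries of CA1 PNs and of DGCs, and 7 of each genotype of CA3 PNs. The total expected count of a library ran from 358355 to 4744036, and the expected count of Arhgef10l from 0 to 59. Some libraries went against their labels or markers. Mouse 15-145 carries a Ts label for its CA3 PNs and a 2N label for its CA1 PNs and DGCs. The first library is taken as 2N here, and its mean over 34 Mmu16 segment genes was 5.65 log2 CPM (CPM is the count scaled to a common library total), against 6.03 to 6.16 in the 6 Ts libraries and 5.42 to 5.63 in the 5 other 2N libraries. The CA1 PN library labelled 2N of mouse 17-154 had 6.04 for the same genes, within the 5.95 to 6.07 of the Ts libraries and above the 5.38 to 5.57 of the other 2N libraries. Of the 27 CA1 PN libraries, 6 had a higher mean over 7 CA2 markers than over 6 CA1 markers (1 2N and 1 Ts on the normal diet, 2 of each on the supplemented diet). The most marked were 2N mouse 17-21, with 2.55 log2 CPM over the CA1 and 7.91 over the CA2 markers, and Ts mouse 16-272, with 2.48 and 7.41. In the CA3 PN libraries the mean over 5 CA3 markers was between 5.21 and 5.79 log2 CPM, and in the DGC libraries that over 6 DGC markers reached 8.36 with a lowest group mean of 8.14. Among the CA3 PN libraries the mean over the DGC markers was highest in Ts mouse 15-140 on the supplemented diet, at 4.46. The group means on that diet were 2.10 in 2N and 2.53 in Ts, which includes this library. They were 2.10 and 2.16 on the normal diet.

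GEFs turn on small GTPases by exchanging GDP for GTP, and GTPase-activating proteins turn them off. In neurons GEFs are known for their part in linking surface receptors to the actin cytoskeleton, in axon growth and in the shape of dendritic spines. Arhgef10l is also called GrinchGEF, and its closest relatives are Arhgef10 and Arhgef17.

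Arhgef10l (ENSMUSG00000040964) lies on the minus strand of chromosome 4 in GRCm39, at chr4:140240914-140393323 in the GENCODE M39 annotation. It is a protein-coding gene spanning 152.4 kb, outside both triplicated segments, and overlaps 0 other annotated genes. The processed files assign 12 transcripts to it, of which M39 still holds 12 among 54. By M39, the outermost of these 12 begins at position 140393323 and is 5413 bases long, 3 begin at 140376184, and the 4389-base transcript ENSMUST00000105797 begins at 140309129, which is 84.2 kb downstream of the outermost start. The files give counts per gene and not per transcript, so the values below sum over all of these starts. RefSeq starts its gene model near the outermost of these starts. The table of promoters is built on GRCm38.p6, and the same 300 bases occur once on chromosome 4 of GRCm39, at chr4:140393167-140393466 on the minus strand, with 250 bases before and 50 after the RefSeq start. They are shown as the annotated promoter nearest the outermost start, with matches to the AP-1 motif (TGACTCA, or TGAGTCA on the other strand) in capitals.
Arhgef10l promoter: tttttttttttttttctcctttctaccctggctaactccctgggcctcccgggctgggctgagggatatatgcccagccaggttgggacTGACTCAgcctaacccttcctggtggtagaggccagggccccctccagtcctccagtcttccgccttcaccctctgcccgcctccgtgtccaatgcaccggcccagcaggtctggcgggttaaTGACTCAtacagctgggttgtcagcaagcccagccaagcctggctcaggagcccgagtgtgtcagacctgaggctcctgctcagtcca
The motif occurs 2 times, beginning 161 and 38 bases before the RefSeq start. That start is at position 140393216, downstream of the outermost start at 140393323. The match 38 bases before the RefSeq start thus lies downstream of the outermost start. Of 32544 distinct RefSeq mouse promoters of this length, 5.19% hold at least 1 match on either strand and 0.224% hold at least 2. The motif was picked after the sequence had been read, and a match is a description of the letters and not of a bound site. The CRE motif (TGACGTCA) had 0 matches in this window and is in 1.80% of the promoters, the TATA motif (TATAAA or TTTATA) had 0 and is in 13.6%, and the GC box (GGGCGG or CCGCCC) had 0 and is in 35.9%.

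In CA3 PNs of the normal diet, Arhgef10l was lower in Ts than in 2N mice. The 6 2N libraries ran from 8.19 to 22.8 CPM after scaling by trimmed mean of M values (TMM), with a median of 13.7. The 6 Ts libraries ran from 1.62 to 8.22 CPM, with a median of 3.37. The Ts libraries held 32 expected counts of the gene in all and the 2N libraries 171. Of the Ts libraries, 5 lay below every 2N library, and the other, with 8.22 CPM, lay just above the lowest 2N library. The fitted log2 fold change (LFC, Ts minus 2N) was -1.95 (standard error 0.34). It stayed between -2.22 and -1.70 with any 1 mouse left out, and was -1.27 with the library of mouse 15-145, at 14.3 CPM, kept under its Ts label. In this comparison 9.20% of all 13451 genes tested had an unadjusted p under 0.05, a share that has no bearing on a gene chosen by the same contrast.

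In DGCs of the normal diet the order was the other way. The 6 2N libraries ran from 5.69 to 21.9 CPM with a median of 13.3. The 6 Ts libraries ran from 17.5 to 31.4 CPM with a median of 19.5. All 6 Ts libraries were above the 2N median and 2 of them were above every 2N library, while 4 2N libraries were below every Ts library. The LFC was 0.62 (standard error 0.24), and it lay between 0.47 and 0.80 with any 1 mouse left out. Here 8.50% of the 13442 genes tested passed an unadjusted p of 0.05. The fitted difference between the genotype LFCs of CA3 PNs and DGCs was -2.59 (standard error 0.44), also a value that chose the gene.

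**Figure D1:**
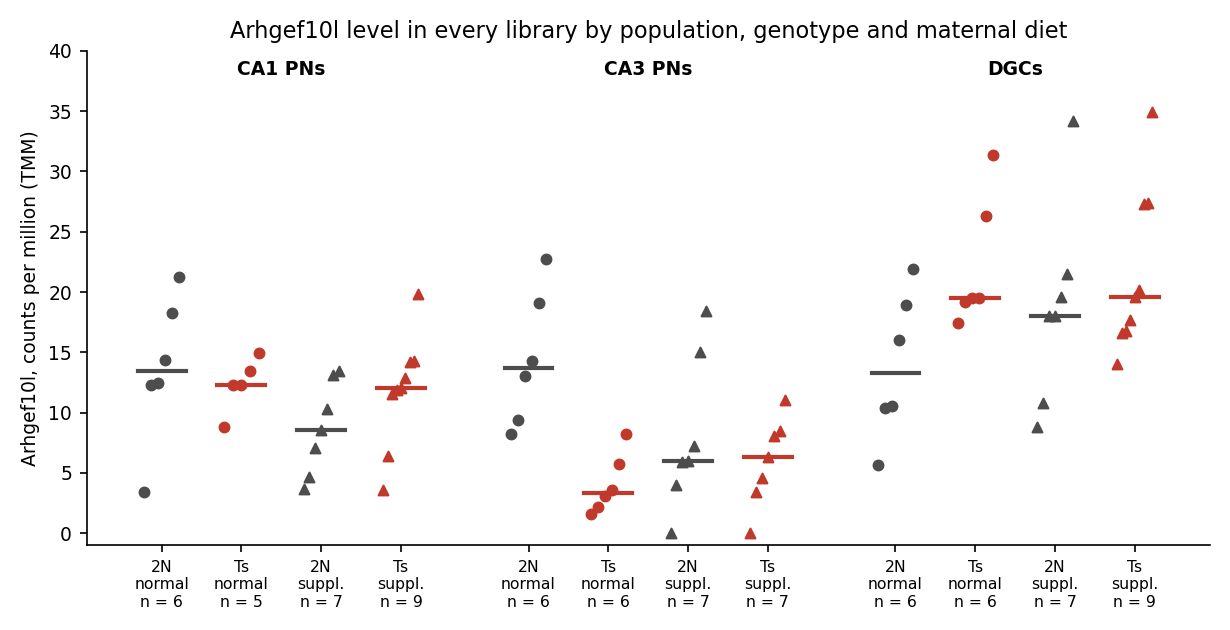
Arhgef10l level in CPM (linear axis, TMM-scaled) in each of 81 libraries, by population, genotype and maternal diet; each point is 1 library of 1 mouse and the bar is the group's median. On the normal diet the CA3 PN Ts libraries sit between 1.62 and 8.22 CPM against 8.19 to 22.8 in 2N, while on the supplemented diet the medians of 2N and Ts CA3 PNs are 6.02 and 6.32.

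Markers of interneurons also had a lower median level in Ts than in 2N CA3 PNs of the normal diet. All 9 interneuron markers of the list were detected in both genotypes, 9 of them in every 2N library and 8 in every Ts library. Their summed level ran from 190 to 456 CPM in 2N (median 329) and from 166 to 220 CPM in Ts (median 201). Their part in the Arhgef10l result was not tested. On the supplemented diet the same sums were 193 to 409 CPM in 2N (median 282) and 163 to 294 in Ts CA3 PNs (median 224). The means over the interneuron list there were 4.21 ± 0.30 log2 CPM in 2N and 4.17 ± 0.34 in Ts (SD, n = 7 each). The CA3 marker means, at 5.47 ± 0.16 log2 CPM in 2N and 5.37 ± 0.13 in Ts (SD, n = 6 each), and the 6 DGC markers, summed to 27.4 to 49.1 CPM in 2N and 32.2 to 47.3 in Ts, overlapped between genotypes in CA3 PNs of the normal diet.

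Summed levels of some markers of other cells also differed between genotypes in DGCs. On the normal diet the summed level of the 7 CA2 markers ran from 139 to 228 CPM in 2N, where Ccdc3 was at 0, and from 226 to 316 in Ts. The CA2 marker means overlapped, at 3.50 ± 0.27 log2 CPM in 2N and 3.67 ± 0.19 in Ts (SD, n = 6 each). The summed level of the 6 CA1 markers, all detected in both genotypes, ran from 35.7 to 68.3 CPM in 2N and from 29.3 to 38.3 in Ts. The mean over 5 astrocyte markers, all detected, was 4.07 ± 0.10 log2 CPM in 2N and 4.34 ± 0.27 in Ts (SD, n = 6 each), and their sums overlapped. On the supplemented diet the CA2 sums of DGCs were 129 to 211 CPM in 2N and 197 to 280 in Ts. The CA2 marker means there overlapped, at 3.49 ± 0.20 log2 CPM in 2N and 3.60 ± 0.11 in Ts (SD, n = 7 and 9). The interneuron sums were 192 to 283 CPM in 2N and 250.4 to 361 in Ts. The CA2 list includes Pcp4. The paper reports Pcp4 as a triplicated gene that was downregulated in CA3 PNs and upregulated in DGCs of Ts mice. The part of Pcp4 in the CA2 sums, and that of all these markers in the DGC values, was not tested.

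CA1 PNs were not used to choose the gene. On the normal diet the 5 Ts libraries had 8.79, 12.3, 12.3, 13.5 and 14.9 CPM. The 6 2N libraries ran from 3.44 to 21.3 CPM with a median of 13.4. The Ts values lay inside the 2N range. The LFC was -0.18 (standard error 0.32, 95% interval -0.85 to 0.49), which did not pass edgeR's quasi-likelihood test (unadjusted p = 0.585, adjusted p = 1.0), in a comparison where 3.77% of genes did at an unadjusted p under 0.05. The lowest 2N value, 3.44 CPM from 3 counts, was the library of mouse 17-21, and the LFC without it was -0.36. Without the library labelled 2N of mouse 17-154, which had 18.3 CPM, the LFC was -0.057. It was -0.029 without 2N mouse 15-145, the highest at 21.3 CPM, and -0.073 without Ts mouse 17-153, the lowest of its genotype.

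The mice of the supplemented diet were other animals, so the genotype effect could be tested in all of the populations. It passed the test in none of the 3. In CA3 PNs, the 7 2N libraries ran from 0 to 18.4 CPM with a median of 6.02, and the 7 Ts libraries from 0 to 11.0 with a median of 6.32. The groups overlapped, though 2 2N libraries were above every Ts library. Of the Ts libraries, 4 of 7 were above the 2N median. Group means were 8.10 CPM in 2N and 5.99 in Ts. One library of each genotype had 0 counts, 2N mouse 16-273 and Ts mouse 17-03, and with 3 counts as the limit that 0 allows their levels could have been up to 2.65 and 3.16 CPM before scaling; these limits cover counting error only. The LFC had the sign of the normal diet at -0.41 (standard error 0.53), but its 95% interval of -1.54 to 0.72 covered 0. This LFC had an adjusted p of 0.999 by edgeR (unadjusted p = 0.453, 4.99% of genes under 0.05). Without mouse 16-273 it was -0.60, without mouse 17-03 it was -0.25, without 2N mouse 15-334 it was -0.16, and without 2N mouse 16-90, the highest at 18.4 CPM, it was -0.11. Because the normal-diet libraries chose the gene, the difference between diets in the CA3 PN genotype effect was not tested.

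In DGCs of the supplemented diet, the 7 2N libraries ran from 8.81 to 34.2 CPM (median 18.0) and the 9 Ts libraries from 14.0 to 34.9 CPM (median 19.6). Of the Ts libraries, 5 of 9 were above the 2N median. The LFC was 0.21 (standard error 0.23, 95% interval -0.24 to 0.66; edgeR adjusted p = 0.905, unadjusted p = 0.353, 7.60% of genes under 0.05). The direction was that of the normal diet, but the interval covered 0. Single libraries moved this value. Without 2N mouse 16-90, the highest 2N library at 34.2 CPM from 39 counts, the LFC was 0.52 and the unadjusted edgeR p was 0.0319 (adjusted p = 0.575), and without 2N mouse 14-125, the lowest, it was 0.057. It was 0.094 without 2N mouse 15-269 and 0.098 without Ts mouse 15-199, the highest.

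In CA1 PNs of the supplemented diet, the 7 2N libraries ran from 3.68 to 13.5 CPM (median 8.54) and the 9 Ts libraries from 3.60 to 19.9 (median 12.1). Of the Ts libraries, 7 of 9 were above the 2N median and 3 were above every 2N library. The LFC was 0.39 (standard error 0.32, 95% interval -0.26 to 1.04; edgeR adjusted p = 1.0, unadjusted p = 0.232, 3.60% of genes under 0.05). CA2 markers differed widely among the CA1 PN libraries, and their part in the Arhgef10l values was not tested. The 6 libraries richer in CA2 than in CA1 markers had 3.44 to 14.9 CPM of Arhgef10l with a median of 5.05, and the 21 others had 4.68 to 21.3 CPM with a median of 12.5. All 7 CA2 markers were detected in each group, and their sum on the supplemented diet was 95.3 to 1994 CPM in 2N and 97.3 to 1498 in Ts. Without those 6 libraries, an alternative chosen after seeing the data, the LFC was -0.43 on the normal diet (edgeR adjusted p = 0.878, unadjusted p = 0.146) and 0.47 on the supplemented diet (edgeR adjusted p = 0.995, unadjusted p = 0.0982).

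The difference in genotype LFC between CA3 PNs and DGCs was also tested itself on the supplemented diet. It was -0.61 (standard error 0.54, 95% interval -1.69 to 0.47), with an adjusted p of 1.0 by edgeR's quasi-likelihood test (unadjusted p = 0.263), and 4.42% of 18435 genes had an unadjusted p under 0.05. With mouse as a block it was -0.67 (edgeR adjusted p = 1.0, unadjusted p = 0.243). The sign was that of the normal diet. The interval covered 0. With 1 mouse left out it ran from -0.84 (without mouse 16-273) to -0.36 (without mouse 15-334). The corresponding difference was 0.78 (standard error 0.57) for CA1 PNs minus CA3 PNs and 0.17 (standard error 0.51) for CA1 PNs minus DGCs, with edgeR adjusted p of 1.0 for both.

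**Figure D2:**
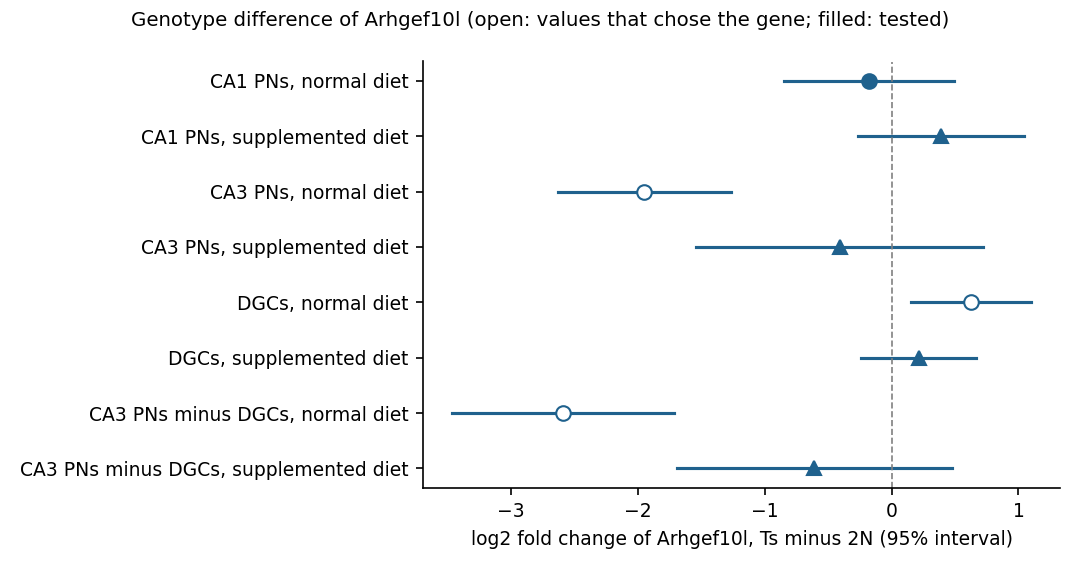
Fitted Arhgef10l LFC of Ts against 2N with its 95% interval (log2 scale, horizontal axis) for each population and diet, and for the difference between CA3 PNs and DGCs. Open symbols are the normal-diet values that chose the gene, at -1.95, 0.62 and -2.59; filled symbols were tested, and each of their intervals crosses 0.

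The populations differed on the supplemented diet. DGCs had more Arhgef10l than CA3 PNs in all 7 2N mice and in all 7 Ts mice with both libraries. The log2 CPM of the DGC library exceeded that of the CA3 PN library of the same mouse by a median of 0.84 in 2N (range 0.23 to 3.71) and 1.82 in Ts (range 0.69 to 3.71). The largest values of each are the mice whose CA3 PN library had 0 counts, so they depend on the added prior count. The fitted LFC of CA3 PNs minus DGCs was -1.24 in 2N (standard error 0.39, edgeR adjusted p = 0.00926) and -1.85 in Ts (standard error 0.36, adjusted p = 4.2e-05). Populations differed at many genes, with 44.7% of 18435 genes at an unadjusted p under 0.05 in 2N and 46.5% in Ts.

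CA1 PNs were also below DGCs on the supplemented diet. The DGC library was higher in 6 of 7 2N mice and 8 of 9 Ts mice. The LFC of CA1 PNs minus DGCs was -1.11 in 2N (standard error 0.40, edgeR adjusted p = 0.0322) and -0.94 in Ts (standard error 0.31, adjusted p = 0.0158), against shares of all genes of 38.3% and 43.0% at an unadjusted p under 0.05. With mouse as a block the adjusted p in 2N was 0.0684, and the unadjusted p was 0.021. Without the 6 libraries rich in CA2 markers the values were -0.95 (edgeR adjusted p = 0.0885) and -0.69 (adjusted p = 0.0833), with an unadjusted p of 0.028 and 0.032. Between the 2 pyramidal populations, CA1 PNs minus CA3 PNs gave 0.13 in 2N (standard error 0.42, edgeR adjusted p = 0.879; 31.6% of genes) and 0.91 in Ts (standard error 0.38, adjusted p = 0.086, unadjusted p = 0.0217; 31.3% of genes). Without the libraries rich in CA2 markers the Ts value was 1.16 (edgeR adjusted p = 0.0163). CA1 PNs were higher in 4 of 7 2N mice and 6 of 7 Ts mice.

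On the normal diet the same comparisons rest on the libraries that chose the gene. In 2N mice the populations were level, with median levels of 13.4, 13.7 and 13.3 CPM in CA1 PNs, CA3 PNs and DGCs. The DGC library was above the CA3 PN library in 2 of 6 2N mice, by a median of -0.03 on the log2 scale. In Ts mice it was above in 6 of 6, by a median of 2.23 (range 1.5 to 2.7), and CA1 PNs were above CA3 PNs in 5 of 5 and below DGCs in 5 of 5. The 2N mice of the normal diet were thus the group in which DGCs did not exceed CA3 PNs. By group median, the 12 groups ran from CA3 PNs of Ts mice on the normal diet (3.37 CPM), through the 2N and Ts CA3 PNs of the supplemented diet (6.02 and 6.32), to DGCs of Ts mice on the normal and supplemented diets (19.5 and 19.6). Neighbours in this order overlapped in their library values.

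**Figure D3:**
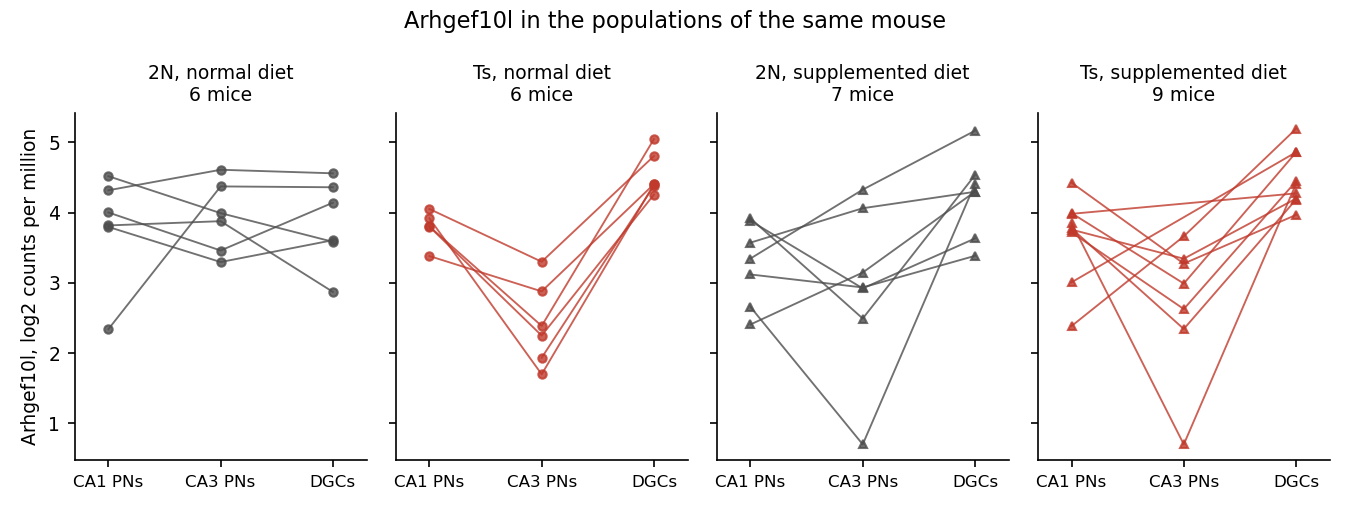
Arhgef10l in log2 CPM (vertical axis) in the CA1 PN, CA3 PN and DGC libraries of the same mouse, 1 line per mouse, for each genotype and diet; a missing library leaves a shorter line. CA3 PNs are the lowest point of the lines of all 6 Ts mice on the normal diet and lie below DGCs in all 14 supplemented-diet mice with both, whereas in 2N mice of the normal diet 4 of 6 have the higher value in CA3 PNs.

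The diets were compared within genotype. In CA1 PNs, where the gene was not chosen, the LFC of the supplemented minus the normal diet was -0.65 in 2N (standard error 0.34, 95% interval -1.33 to 0.04; edgeR adjusted p = 1.0, unadjusted p = 0.0633) and -0.11 in Ts (standard error 0.32; edgeR adjusted p = 1.0, unadjusted p = 0.720). Of all genes, 3.27% and 3.05% had an unadjusted p under 0.05. In 2N the unadjusted p fell under 0.05 without mouse 17-21 (LFC -0.85, unadjusted p = 0.0112), 15-269 (LFC -0.82, unadjusted p = 0.0292) or 15-296 (LFC -0.75, unadjusted p = 0.0394), with edgeR adjusted p of 0.941 or more in each. Without the 6 libraries rich in CA2 markers it was -0.68 in 2N (edgeR adjusted p = 0.918, unadjusted p = 0.0253), and the Ts value turned to 0.22 (edgeR adjusted p = 1.0). The Ts value ran from -0.21 to 0.030 with 1 mouse left out. In the populations that chose the gene, the diet LFC was -0.87 (standard error 0.44) in 2N and 0.67 (0.57) in Ts CA3 PNs, and 0.38 (0.26) in 2N and -0.03 (0.21) in Ts DGCs. These have no test, since they contain the same normal-diet libraries. By these values 2N CA3 PNs had a lower level and Ts CA3 PNs a higher level on the supplemented diet, where the genotypes' medians nearly met.

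A mouse with a high level in 1 population was not shown to be high in another. Over the supplemented-diet mice, the log2 CPM of CA3 PNs and DGCs had a Pearson r of 0.18 (14 mice, permutation p = 0.543, adjusted over 3 pairs p = 0.814) and a Spearman rank correlation of 0.15 (permutation p = 0.596, adjusted p = 0.596). Without the 2 mice farthest from the median, those with 0 counts in CA3 PNs, r was 0.42. CA1 PNs and CA3 PNs gave r = -0.01 over 14 mice (permutation p = 0.977, adjusted p = 0.977), Spearman rank correlation = -0.24 (p = 0.410, adjusted p = 0.596) and r = 0.25 without the 2 farthest mice. CA1 PNs and DGCs gave r = -0.30 over 16 mice (permutation p = 0.266, adjusted p = 0.797), Spearman rank correlation = -0.31 (p = 0.238, adjusted p = 0.596) and r = -0.14 without the 2 farthest.

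The files also give, for each library, the length of the gene's transcripts weighted by their estimated abundance, a readout of which transcripts the reads were assigned to. With few reads it moved widely, from 618.5 to 4440 bases over the libraries with a count. On the supplemented diet it was 2248 ± 1304 bases in Ts and 3170 ± 924 in 2N CA1 PNs (SD, n = 9 and 7, exact permutation test p = 0.135, adjusted over 3 populations p = 0.404). The CA3 PN means were 2035 ± 1138 bases for Ts and 1590 ± 561 for 2N (n = 6 each, exact permutation test p = 0.429, adjusted p = 0.643). Those of DGCs were 2112 ± 953 bases for Ts and 2117 ± 829.04 for 2N (n = 9 and 7, exact permutation test p = 0.976, adjusted p = 0.976). A shift in transcript use with genotype was not detectable at this depth.

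Per length, in the deposited TPM (which divides counts by transcript length and scales every library to the same sum), Arhgef10l was the middle of the 3 relatives. Its medians for CA1 PNs, CA3 PNs and DGCs were 3.78, 4.58 and 11.0 TPM over all libraries of each population. Arhgef10 had medians of 2.18, 2.12 and 2.86 TPM, and Arhgef17 had 33.3, 81 and 31.9. Arhgef17 was thus highest in CA3 PNs, where Arhgef10l was below its DGC level.

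Neither relative passed the test in CA3 PNs. On the normal diet, Arhgef17 had 662 ± 59.5 CPM in Ts and 652 ± 58.1 in 2N CA3 PNs (SD, n = 6 each), an LFC of 0.02 (edgeR adjusted p = 0.975). Arhgef10 had 9.22 ± 4.38 and 10.1 ± 4.49 CPM there, an LFC of -0.06 (adjusted p = 0.985). In DGCs of the normal diet both relatives were higher in Ts at an unadjusted p under 0.05. That threshold was passed by 8.50% of all genes tested there, in either direction. Arhgef10 had an LFC of 0.58 (unadjusted p = 0.0463, edgeR adjusted p = 0.574) and Arhgef17 had 0.20 (unadjusted p = 0.0355, edgeR adjusted p = 0.556). Neither passed after adjustment over all genes, and on the supplemented diet their DGC LFCs were 0.035 and 0.17 (edgeR adjusted p = 0.991 and 0.681).

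Within 500 kb of either end of Arhgef10l, 33 other genes are annotated, of which 8 to 10 were tested in each comparison. In CA3 PNs of the normal diet 1 of 9 passed an unadjusted p of 0.05, against 9.20% of all genes. Igsf21, a synaptic adhesion protein gene 267 kb from Arhgef10l, had an LFC of 1.15 (standard error 0.21, edgeR adjusted p = 7.07e-04) there and 0.65 (standard error 0.25, unadjusted p = 0.0129, adjusted p = 0.709) on the supplemented diet. Necap2 had an LFC of 0.63 in CA3 PNs of the supplemented diet (unadjusted p = 0.0202, edgeR adjusted p = 0.801) and Fbxo42 0.46 in CA1 PNs of the normal diet (unadjusted p = 0.0082, adjusted p = 1.0). By count, 2 of 10 neighbours passed in CA3 PNs of the supplemented diet, against 4.99% of all genes. In CA1 PNs 1 of 8 and 0 of 10 passed on the normal and supplemented diets, against 3.77% and 3.60%. The nearest tested gene, Rcc2 at 34.5 kb, ran from -0.17 to 0.27 over the 6 comparisons. Over the same comparisons Sdhb ran from -0.03 to 0.16, Atp13a2 from -0.15 to 0.21, Crocc from -0.36 to -0.02, Szrd1 from -0.26 to 0.35, Padi2 from -0.71 to 0.85 and Mfap2 from -0.38 to 0.49, where tested. In DGCs 0 of 8 and 0 of 9 neighbours passed on the normal and supplemented diets (unadjusted edgeR p under 0.05), against 8.50% and 7.60% of all genes.

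The pattern most like that of Arhgef10l was sought over 81 libraries by Pearson r of log2 CPM after centring each gene in each population, among 13806 genes above 1 CPM in at least 41 libraries. These r values are a description, since libraries share depth, genotype and the values that chose the gene. The median r was 0.00 and the 99th percentile 0.32. Dclk3, a doublecortin-like kinase gene, had the highest at 0.62, then Rai2 (0.50), E130308A19Rik (0.49), Cntn4, a contactin adhesion gene (0.48), and Ablim3, an actin-binding LIM protein gene (0.47). Dclk3 had a median of 22.1 CPM in 2N and 8.82 in Ts CA3 PNs of the normal diet, and 13.2 and 13.4 on the supplemented diet. Its LFC was -1.02 in CA3 PNs and 0.03 in DGCs of the normal diet, so it shared the lower Ts level in CA3 PNs but not the higher one in DGCs. The r of Dclk3 with Arhgef10l was 0.62 over 27 CA1 PN libraries, 0.79 over 26 CA3 PN libraries and -0.26 over 28 DGC libraries. It was 0.69 over the 35 normal-diet and 0.55 over the 46 supplemented-diet libraries. The CA1 PN libraries include the 6 rich in CA2 markers, all of them below the population mean of Dclk3. Their part in the CA1 PN r was not tested. The lowest r values were those of Dgkg, a diacylglycerol kinase gene (-0.49), Ptprg, a receptor tyrosine phosphatase gene (-0.47), Snx16 (-0.45), Pip5k1b (-0.44) and Rtn1 (-0.44). In DGCs, r was between -0.26 and 0.31 for the 5 highest genes.

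**Figure D4:**
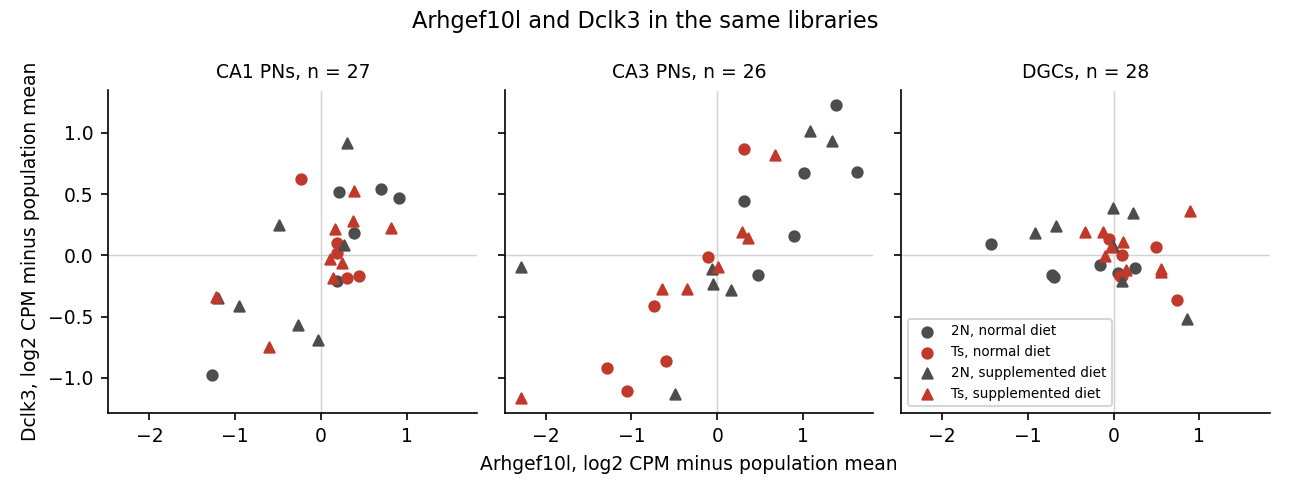
Dclk3 against Arhgef10l in each library, both in log2 CPM minus the gene's mean in that population, with genotype by colour and diet by shape. The points rise together in CA1 PNs (r = 0.62, 27 libraries) and CA3 PNs (r = 0.79, 26 libraries) and do not in DGCs (r = -0.26, 28 libraries). The CA1 PN libraries include the 6 rich in CA2 markers.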

How the data were processed

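RNA-seq of 81 libraries was analysed, 35 from 12 mice of the normal and 46 from 16 mice of the supplemented diet. Per the methods and the labels, the authors used FastQC 0.11.9, Trimmomatic 0.39, STAR, Picard 2.26.2 and RSEM on total RNA amplified with a stranded kit, aligned to GENCODE's GRCm39 (the submitters' processing notes also name mm10). The deposited expected counts per gene, which RSEM need not give as whole numbers (0.784% were not), were rounded. The deposited TPM and transcript length (in bases) per gene, which the authors also took from RSEM, were used only where named.

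Libraries were grouped by label, except the CA3 PN library of mouse 15-145, taken as 2N. Per fit, genes over 0.1 CPM in at least 10 libraries were kept, scaled by TMM and tested with edgeR 4.0.16 (quasi-likelihood, robust, two-sided), adjusted by Benjamini-Hochberg over all genes tested; R was 4.3.3. The call threshold was the study's own, an unadjusted p below 0.05. Fits were tested on simulated data, with changes placed only in genes above every group median of Arhgef10l. That test does not cover the level of this gene. The covariates of the study's model were not used here. Genotype was fitted per population and diet, populations over all libraries of the supplemented diet, and diet over all libraries of a population. Log2 CPM carries a prior count of 2. Intervals are 95%. Correlations used 100000 permutations, and lengths an exact permutation test with scipy 1.17.1.

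The member and the gene lists were chosen with earlier results of these data known. Genes are named by a rule: both relatives, tested neighbours within 500 kb, and the 5 highest and 5 lowest r; 1 pathway list, with the part of the rule that names its genes, is not reported here. The libraries of 1 mouse come from the same animal and so are paired. Over 13807 genes, deviations of same-mouse libraries from their group means had a median r of 0.06 (78 pairs, -0.00 to 0.14), 15 of them over 0.1. Alternatives were DESeq2 1.42.0, limma-voom 3.58.1, scaling by library totals, edgeR's filterByExpr (minimum count 10), no filter on low counts, both diets in 1 fit, the label of mouse 15-145, mouse as a block, an exact permutation test of log2 CPM, a minimum of 5 counts for lengths, and each mouse left out; leaving out 6 CA1 PN libraries was added after seeing the data.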

Additional observations from a re-analysis of the deposited data

Results flagged for a closer look

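Among the 12 groups tested for 1 library far from the rest, with chance flagging about 1 in 20 groups, no CPM value of Arhgef10l stood out, and 2 transcript lengths did. The CA3 PN library of Ts mouse 17-192 on the normal diet had a weighted length of 4382 bases, against 2180 bases for the next of 6, from 3 counts. The DGC library of Ts mouse 15-36 on the supplemented diet also had 4382 bases, against 2430 for the next of 9, from 12 counts.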

How the results depend on the processing

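Apart from the values given here, each reported result kept its direction and its side of the threshold, and each count of genes stayed within 1.5 times, under the alternatives run. The genotype LFC in CA3 PNs of the normal diet was -1.27 with the library of mouse 15-145 as labelled, and the genotype LFC in DGCs of the supplemented diet ran from 0.057 to 0.52 with 1 mouse left out. The diet LFC in CA1 PNs with 1 mouse left out ran from -0.85 to -0.50 in 2N and from -0.21 to 0.030 in Ts, the last without mouse 15-199, and it was -0.68 and 0.22 without the libraries rich in CA2 markers. The difference in genotype LFC between CA1 PNs and DGCs turned to -0.025 with limma-voom. The causes were not tested. With mouse as a replicate block the CA3 PN minus DGC difference was -0.67, and the block changed no call at an unadjusted p under 0.05. With no filter, genes at an unadjusted p under 0.05 went from 463 to 1067 and 515 to 1237 in CA1 PNs, 1237 to 2028 and 701 to 1593 in CA3 PNs, and 1143 to 1812 and 1076 to 1686 in DGCs (normal, then supplemented diet). With filterByExpr those of the difference between CA3 PNs and DGCs went from 814 to 396. That filter gave no Arhgef10l value in CA3 PNs of the supplemented diet, where the gene did not pass it. Depth limits every library value, since the gene had at most 59 counts.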
